A study of Mus musculus with 13 samples.

Results

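Regulatory T (Treg) cells in which Foxp3 had been restored were compared at 7 months and at 1.5 months after treatment, by the α chains of their T cell receptors (TCR) and with the time points given in the sample titles. The comparison took 7 of 13 samples, 5 at 7 months and 2 at 1.5 months, and 42710 of the 78521 functional clonotypes of the series. All 7 came from male C57BL/6 mice of the genotype Foxp3LSL/y Cd4creERT2, dosed with 4-hydroxytamoxifen (4-OHT) when 14 days old. The other 6 samples, 4 at 3 months and 2 at 5 months, had the same genotype and treatment and entered the tests across all samples. The labels gave an age of 8 weeks for the 1.5-month samples and 7.5 months for the 7-month samples, so time since treatment and age cannot be told apart. The LSL cassette keeps Foxp3, the lineage-defining transcription factor of Treg cells, silent and marks the would-be Treg cells with Thy1.1. The Cre recombinase, expressed from the Cd4 locus and active after 4-OHT, removes the cassette, and Foxp3 then returns with a GFP reporter. From spleen and lymph nodes, TCRβ+ CD4+ GFP+ Thy1.1- cells were isolated by sorting, and their α-chain transcripts were sequenced. There was no untreated or wild-type sample in the comparison, and the tables hold only TCR transcripts, so Foxp3 and GFP could not be checked in them.

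The TCR α-chain gene is assembled in the thymus from one V and one J segment. Each V–J junction is trimmed and can gain non-templated bases, and the junction forms most of CDR3, the loop that reads the peptide. Early rearrangements on an allele join J-proximal V to 5′ J segments, and later rearrangements move outward to J-distal V and 3′ J segments. A clonotype was a CDR3 nucleotide sequence together with its V and J genes, and it was functional when the CDR3 had no stop codon or frameshift. Clonotype number therefore describes how many different α chains were seen, while the counts of a clonotype describe how much of the sample it takes.

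Functional counts were 553889 to 582908 at 1.5 months and 477052 to 580706 at 7 months, and a clonotype had a median of 43 to 57 and 36 to 76 counts, respectively. A detection floor of 3 counts, or 5.15e-04% to 6.29e-04% of a sample, served only for reading small values. Clonotypes below it were kept in the numbers. TRAV11 with TRAJ18, the segments of invariant NKT-cell receptors, took 0.0710% to 0.0735% of counts at 1.5 months and 1.88e-04% to 0.0754% at 7 months. TRAV1 with TRAJ33, the segments of MAIT cells, took at most 0.128%, and TCR δ rearrangements 0.0189% to 0.0627%. Only the segments were matched, and the CDR3 was not checked for an invariant sequence. Replicate 1 at 1.5 months shared 776 clonotypes (9.70% of its own) with replicate 4 at 3 months and 314 or fewer with each other library. Leaving out clonotypes at least 100 times larger in another library removed 194 of its clonotypes (2.43%) and 57 to 185 from each 7-month sample, and the difference in clonotype number was then -1586.7 (exact permutation p = 0.0184). The part of the remaining shared clonotypes in the results was not tested. The labels give no sequencing batch and do not say that replicates were separate animals, so p-values measure the spread between these samples, which may be technical.

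The 7-month samples held 5067, 6354, 5625, 5040 and 6129 functional clonotypes, all fewer than the 7998 and 6497 at 1.5 months. The means differed by -1604.5 clonotypes, or -22.1% (exact permutation p = 0.0387 over all 13 samples, two-sided). This call rested on replicate 1 at 1.5 months, which held the most clonotypes. Without it the difference was -854 (exact permutation p = 0.415). Leaving out replicate 1, 3 or 4 at 7 months also lifted the p above the threshold (exact permutation p = 0.0723, 0.0657 and 0.0718), with differences of -1460.5, -1600 and -1453.75. With only these 2 groups there are 21 ways to divide 7 samples into 2 and 5, and the smallest p that n = 2 allows is 0.0476, which the clonotype number reached. Leaving out the other 1.5-month replicate gave -2355. Clonotypes with 1 count varied widely, from 925 to 1467 at 1.5 months and from 559 to 1405 at 7 months, and without them the difference was -1399.3 (exact permutation p = 3.83e-04).

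Some clonotypes came as near copies of larger ones, and these bear on every number below. Whether such copies were errors of sequencing or PCR, or true α chains, was not tested. In each sample 10.6% to 11.9% of functional clonotypes had the same V and J genes as a larger clonotype and differed from it by 1 base within its V- or J-encoded CDR3 bases. These 1-base copies numbered 948 and 762 at 1.5 months and 571, 674, 626, 581 and 654 at 7 months, and they took 3.76% to 3.86% and 2.20% to 3.10% of counts. Of the 4816 copies, 2754 (57.2%) changed T to G in the J-encoded bases. In 4 J genes, TRAJ35, TRAJ13, TRAJ15 and TRAJ21, copies were 35.4% to 56.2% of all clonotypes. These 4 genes held 57.0% of the copies and 16.3% of the clonotypes. The median size of a T-to-G copy relative to its larger clonotype was 0.168 to 0.169 for TRAJ13 at 1.5 months and 0.164 to 0.186 at 7 months, and 0.0750 to 0.0810 and 0.0707 to 0.0833 for TRAJ15. The 5th percentile of the ratio over all copies was 0.0544 to 0.0556, next to the ratio of 0.05 below which the study's correction dropped a clonotype 1 mismatch from a larger one. The pairs below show the largest example for TRAJ13, TRAJ15 and TRAJ21, and the base that differs is in capitals. The sequences are CDR3 from 5′ to 3′, and positions count from 1 at its first base.
TRAV7D-2 with TRAJ13, 7 months replicate 4, 6559 counts: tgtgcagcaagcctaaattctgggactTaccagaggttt
its copy (T28G), 1116 counts: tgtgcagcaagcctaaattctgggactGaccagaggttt
TRAV3-1 with TRAJ15, 7 months replicate 3, 11001 counts: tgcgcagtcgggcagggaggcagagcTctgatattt
its copy (T27G), 807 counts: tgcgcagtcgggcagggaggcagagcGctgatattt
TRAV4-4-DV10 with TRAJ21, 1.5 months replicate 2, 1526 counts: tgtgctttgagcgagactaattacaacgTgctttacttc
its copy (T29G), 100 counts: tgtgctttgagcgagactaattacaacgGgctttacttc
The TRAJ13 copy would read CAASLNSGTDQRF in place of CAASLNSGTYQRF, the TRAJ15 copy encodes the same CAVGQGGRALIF, and the TRAJ21 copy would read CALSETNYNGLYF in place of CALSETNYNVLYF. With copies merged into their larger clonotypes, the samples held 7050 and 5735 clonotypes at 1.5 months and 4496, 5680, 4999, 4459 and 5475 at 7 months. The groups still did not overlap, and the difference was -1370.7 (exact permutation p = 0.0597).

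Most of the net loss in number lay in clonotypes of 0.001 to 0.1%. Most clonotypes at 1.5 months were also of these sizes, with mean shares of 32.1% (0.001 to 0.01%) and 44.8% (0.01 to 0.1%). Clonotypes of 0.1 to 1% were more numerous at 7 months. Sizes were set as percent of a sample's functional counts, and 3 of 5 size classes (60%) passed the exact permutation test with Benjamini-Hochberg adjustment over the 5. Clonotypes of 0.001 to 0.01% numbered 2614 and 2047 at 1.5 months and 1298, 1628, 1646, 1608 and 1900 at 7 months. All 5 later samples lay below both earlier ones, and the difference of -714.5 (-30.7%) was 44.5% of the net loss (exact permutation adjusted p = 0.0193). Clonotypes of 0.01 to 0.1% fell from 3331 and 3109 to 2874, 2890, 2593, 2424 and 2244. This difference of -615 (-19.1%) was another 38.3% of the loss (exact permutation adjusted p = 0.0193), again with no overlap. In percent it was smaller than the change of all clonotypes, -22.1%. Clonotypes of 0.1 to 1% went the other way, from 53 and 78 to 87, 93, 116, 105 and 112, and all 5 later samples were above both earlier ones. They gained 37.1 on average (+56.6%, exact permutation adjusted p = 0.0193).

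**Figure D1:**
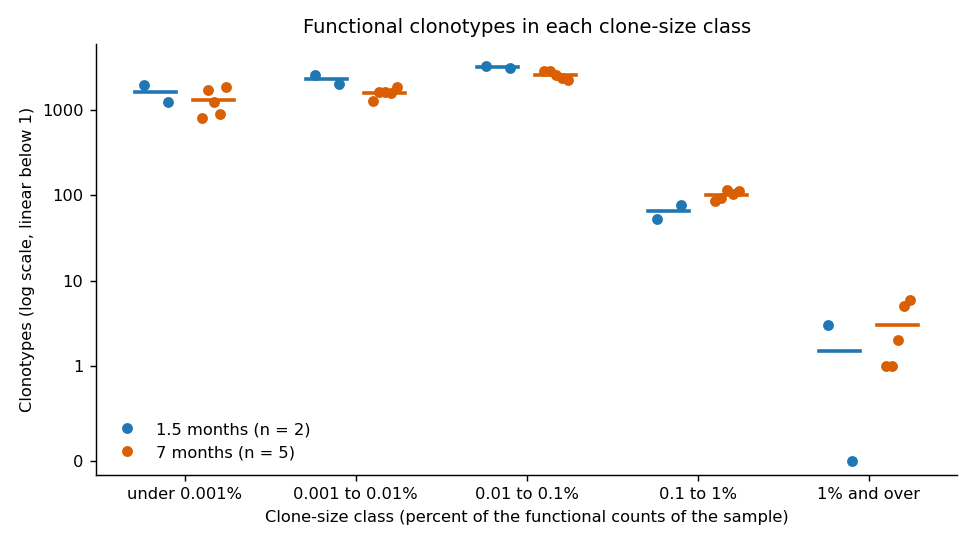
Functional clonotypes per sample (y axis, log scale, linear below 1) in 5 clone-size classes (x axis, percent of the functional counts of the sample). Points are samples, bars are group means; from 0.001 to 0.1% all 7-month points lie below the 1.5-month points, and from 0.1 to 1% all lie above.

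The smallest clonotypes, under 0.001%, numbered 1997 and 1263 at 1.5 months and 807, 1742, 1268, 898 and 1867 at 7 months, a change in mean of -19.2%. The groups overlapped in part, with 2 of the 5 later samples below both earlier ones (exact permutation adjusted p = 0.794), and without replicate 1 at 1.5 months the mean difference turned from -313.6 to 53.4. Clonotypes of 1% and over numbered 3 and 0 at 1.5 months and 1, 1, 2, 5 and 6 at 7 months (exact permutation adjusted p = 0.794). As a share of clonotypes, only the 0.1 to 1% class passed, 1 of 5 (20%). It rose from 0.663% and 1.201% of clonotypes to 1.72%, 1.46%, 2.06%, 2.08% and 1.83% (exact permutation adjusted p = 0.00908). The 2 classes called lower in number did not pass in share. Clonotypes of 0.001 to 0.01% had mean shares of 32.1% and then 28.7% (exact permutation adjusted p = 0.740). Those of 0.01 to 0.1% had 44.8% and then 46.6% (exact permutation adjusted p = 0.998). When classes were set by counts instead of percent, 0 of 5 passed in number (edges at 2, 10, 100 and 1000 counts, smallest exact permutation adjusted p = 0.262). The number and share calls were also lost without replicate 1 at 1.5 months (0 classes each), while the test of the 2 groups alone could not pass after adjustment unless all 5 classes reached its smallest p. Sizes of the differences moved as well: without replicate 1 at 1.5 months clonotypes of 0.001 to 0.01% differed by -431 and those of 0.1 to 1% by 24.6, and without replicate 2 by -998 and 49.6.

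Fewer clonotypes held 50% and 90% of counts at 7 months, and 5 of 10 measures of concentration (50%) passed. These measures were not scaled to the clonotype number of each sample, which was lower at 7 months. Whether they changed beyond that loss was not tested. The clonotypes needed to reach 50% of counts were 1094 and 901 at 1.5 months and 718, 736, 570, 433 and 361 at 7 months. The groups did not overlap, and the mean fell by 43.5% (exact permutation adjusted p = 0.0209). To reach 90% of counts took 3916 and 3326 clonotypes at 1.5 months and 2686, 2929, 2630, 2426 and 2468 at 7 months, a change of -27.4% (exact permutation adjusted p = 0.00442). This was the only concentration measure that passed without replicate 1 at 1.5 months (-698.2, exact permutation adjusted p = 0.0452). The test of the 2 groups alone could not pass after adjustment unless all 10 measures reached its smallest p, and this measure had an exact permutation adjusted p of 0.0952. The 1000 largest clonotypes held 47.8% and 52.7% of counts at 1.5 months and 58.7%, 57.6%, 63.2%, 67.1% and 69.0% at 7 months (exact permutation adjusted p = 0.0209). For the 100 largest the shares were 14.99% and 15.9% against 18.6%, 19.3%, 22.6%, 29.8% and 33.0%, and for the 10 largest 5.52% and 4.45% against 5.72%, 5.37%, 7.37%, 12.1% and 14.5%. Neither passed (exact permutation adjusted p = 0.160 and 0.318), and replicates 4 and 5 at 7 months stood highest in both. Clonotypes of 0.1 to 1% held 7.45% and 13.8% of counts at 1.5 months and 15.8% to 23.2% at 7 months (exact permutation adjusted p = 0.0402). Those of 0.001 to 0.01% held 14.22% and 10.998% against 6.74% to 10.5% (exact permutation adjusted p = 0.0409, and 0.0560 with copies merged). Without replicate 1 at 1.5 months these differences moved from 9.27 to 6.08 and from -3.89 to -2.28 points.

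**Figure D2:**
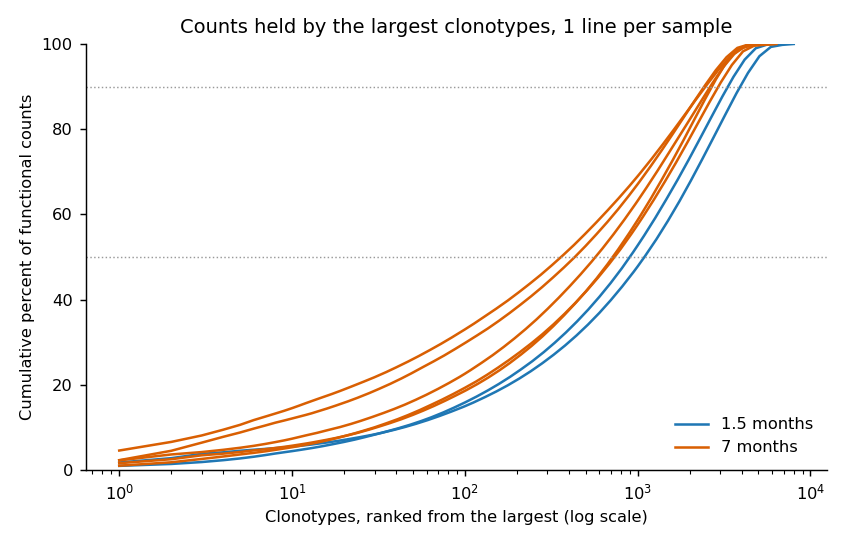
Cumulative percent of functional counts (y axis) against the number of clonotypes taken from the largest downward (x axis, log scale), 1 line per sample, with dotted lines at 50% and 90%. Both 1.5-month lines cross 50% and 90% to the right of all 5 7-month lines, at 901 or more and 3326 or more clonotypes.

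The largest clonotype of each sample is shown to give the head of each repertoire. All but that of replicate 4 at 7 months had 2 counts or fewer in each other sample of the 7. Inserted bases between the V- and J-encoded parts are in capitals. V and J genes lie on chromosome 14, plus strand (GRCm38).
1.5 months replicate 1, TRAV3-3 with TRAJ23: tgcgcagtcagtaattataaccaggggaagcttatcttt
1.5 months replicate 2, TRAV8D-2 with TRAJ9: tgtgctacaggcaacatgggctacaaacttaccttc
7 months replicate 1, TRAV4N-4 with TRAJ17: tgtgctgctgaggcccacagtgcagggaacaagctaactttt
7 months replicate 2, TRAV7-6 with TRAJ58: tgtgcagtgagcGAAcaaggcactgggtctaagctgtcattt
7 months replicate 3, TRAV3-1 with TRAJ15: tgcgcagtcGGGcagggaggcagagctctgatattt
7 months replicate 4, TRAV4-4-DV10 with TRAJ40: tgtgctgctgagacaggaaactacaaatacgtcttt
7 months replicate 5, TRAV15-2-DV6-2 with TRAJ37: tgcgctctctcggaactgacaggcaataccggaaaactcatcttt
They took 1.79% and 0.995% of counts at 1.5 months and 1.63%, 1.03%, 2.28%, 2.33% and 4.59% at 7 months, the last with a 95% Wilson interval of 4.54% to 4.65% that covers counting error only. Of the 7, 5 had 0 inserted bases and 2 had 3. The TRAV4-4-DV10 clonotype (V chr14:53683647-53684177, J chr14:54177921-54177981) was also large in replicate 1 at 1.5 months (5580 counts, 1.01%), and had 471 and 58 counts in replicates 2 and 1 at 7 months. The TRAV15-2-DV6-2 clonotype (V chr14:53649404-53649994, J chr14:54181518-54181577) had 24412 counts in its own sample and 1 or 2 counts in each of 4 others. The TRAV3-3, TRAV4N-4 and TRAV3-1 clonotypes were seen in 1 of the 7 samples each.

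Few CDR3 amino acid sequences followed the time points. Of 27046 distinct sequences in the 7 samples, 135 were in all 7, 299 were in both 1.5-month samples and in none at 7 months, and 9 were in all 5 at 7 months and in neither at 1.5 months. These counts are a description, since 2 samples are shared more easily than 5. The 3 of the 9 with the highest mean share are shown, with inserted bases in capitals, in the version largest at 7 months.
TRAV14D-1 with TRAJ17: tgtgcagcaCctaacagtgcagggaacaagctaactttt
TRAV14D-1 with TRAJ16: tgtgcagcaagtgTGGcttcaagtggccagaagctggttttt
TRAV7-4 with TRAJ24: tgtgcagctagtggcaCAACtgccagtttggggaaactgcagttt
The amino acid sequence of the first, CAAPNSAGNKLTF, was encoded by 4 nucleotide versions and had 542, 46, 218, 2 and 499 counts at 7 months, 4.19e-04% to 0.0939% of a sample. The second, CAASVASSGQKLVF, had 2 versions and 408, 1, 38, 159 and 408 counts. The third had 5 versions and 69, 1, 18, 602 and 1 counts. Each was also present in 3 of the 6 samples at 3 and 5 months. Of the 299, the highest mean share was that of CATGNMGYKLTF, the largest clonotype of replicate 2 above, with 1 and 5799 counts. The next were a TRAV15-2-DV6-2 with TRAJ17 sequence of 17 residues, with 2 and 1311 counts, and a TRAV19 with TRAJ57 sequence of 15 residues, with 1018 and 166 counts. Only the last was above 3 counts in both 1.5-month samples.

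CDR3 length did not single out a class that carried the loss. All 8 length classes had fewer clonotypes at 7 months, with changes from -15.2% (12 amino acids) to -28.5% (16 amino acids), around the -22.1% of all clonotypes. Without replicate 1 at 1.5 months all 8 stayed lower but the differences shrank. They moved from -150.6 to -80.6 for 12 amino acids, from -521.4 to -226.4 for 14 and from -100.3 to -41.8 for 16. None passed the exact permutation test after adjustment (0 of 8, 0%; 1 at an unadjusted p under 0.05; smallest exact permutation adjusted p = 0.118). CDR3 of 13 amino acids numbered 2381 and 1998 at 1.5 months and 1536, 1935, 1699, 1578 and 1817 at 7 months. Those of 14 amino acids numbered 2525 and 1935 against 1557, 1908, 1727, 1486 and 1865. In 6 of the 8 classes all 7-month samples were below both 1.5-month samples. The share of 12-residue CDR3 was 13.3% and 14.2% of clonotypes at 1.5 months and 14.3% to 15.3% at 7 months (exact permutation p = 0.0408, adjusted p = 0.327), and no share passed (0 of 8, 0%). With at least 2 counts per clonotype 7 of the 8 classes were called lower in number, and with at least 10 counts again 7 in number and 1 in share, that of 12 amino acids (difference 1.35 points, exact permutation adjusted p = 0.0227). Without replicate 2 at 1.5 months 1 class passed in number, and without replicate 1, 0.

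Insertion classes did not single out the lost clonotypes either. Clonotypes with 0 inserted bases, whose CDR3 is read from the V and J segments alone, numbered 2422 and 2071 at 1.5 months and 1542, 1964, 1722, 1612 and 1930 at 7 months. Those with 6 or more inserted bases numbered 527 and 410 against 344, 392, 400, 320 and 434. The former groups did not overlap and the latter did. All 7 classes were lower in mean, with changes of -19.3% to -24.6%, and none passed after adjustment (0 of 7, 0%; 3 at an unadjusted p under 0.05; smallest exact permutation adjusted p = 0.0800). Without replicate 1 at 1.5 months all 7 stayed lower but the differences shrank. That for 5 inserted bases moved from -81.6 to -19.6, and that for 6 or more from -90.5 to -32. Their shares stayed close: clonotypes without insertion made up 30.3% and 31.9% of clonotypes at 1.5 months and 30.4% to 32.0% at 7 months, a difference of 0.00638 points. No share passed at an unadjusted or adjusted p under 0.05 (0 of 7, 0%; smallest exact permutation p = 0.596). With at least 2 counts per clonotype 6 of the 7 classes were called lower in number, and likewise 6 when replicate 2 at 1.5 months was left out, against 0 without replicate 1.

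The region of the locus likewise did not set apart the lost clonotypes. The 104 V genes of the tables were ordered by position and divided into 3 parts, and J genes into 5′ (TRAJ41 and above), middle (TRAJ24 to TRAJ40) and 3′ (TRAJ2 to TRAJ23). J-proximal V with 5′ J, the early rearrangements, numbered 1129 and 985 at 1.5 months and 664, 882, 820, 753 and 849 at 7 months. J-distal V with 3′ J, the late ones, numbered 1677 and 1401 against 1147, 1382, 1182 and 1301 in 4 samples and under 1000 in replicate 4. Both combinations were lower without overlap, with changes of -24.9% and -21.9%. Without replicate 1 at 1.5 months their differences moved from -263.4 to -191.4 and from -336.8 to -198.8, and that of all middle J from -550.6 to -206.6. All 18 classes were lower, from -13.6% for V genes with the suffix N, which names 1 of the duplicated V clusters, to -26.9% for J-distal V with 5′ J. The difference for suffix N turned from -95.8 to 6.2 without replicate 1 at 1.5 months. None passed after adjustment in number (0 of 18, 0%; 10 at an unadjusted p under 0.05; smallest exact permutation adjusted p = 0.0744) or in share (0 of 18, 0%; 0 unadjusted; smallest exact permutation p = 0.0706). V genes with no suffix had the smallest share p, with 53.9% and 54.2% of clonotypes at 1.5 months and 51.4% to 53.3% at 7 months. With at least 2 counts per clonotype all 18 were called lower in number, and 17 without replicate 2 at 1.5 months, against 0 without replicate 1.

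**Figure D3:**
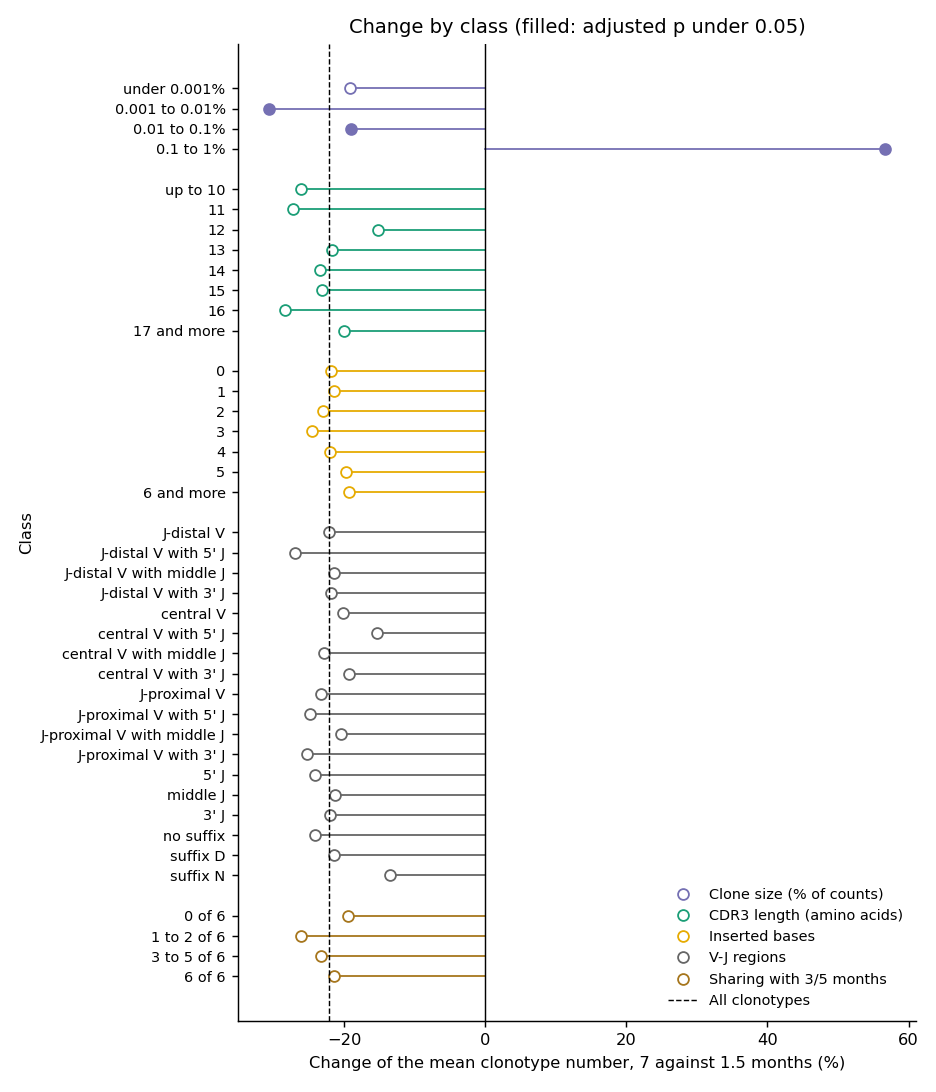
Change of the mean clonotype number from 1.5 months (n = 2) to 7 months (n = 5) in percent (x axis) for each class (y axis) of clone size, CDR3 length, inserted bases, V–J region and sharing. Filled points passed the adjusted test; the dashed line is the change of all clonotypes, -22.1%, and every class of length, insertion, region and sharing lies between -13.6% and -28.5%. The class of 1% and over is left out because 1 sample held none.

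Clonotypes were fewer in mean at 7 months in every class of presence at 3 and 5 months. Each CDR3 amino acid sequence was placed by the number of the 6 samples at 3 and 5 months that held it. Clonotypes whose sequence was in 0 of the 6 numbered 3803 and 3369 at 1.5 months and 2525, 3299, 2937, 2568 and 3123 at 7 months, a change of -19.4%. Those in all 6 numbered 334 and 271 against 239, 232, 237, 231 and 249, a change of -21.5%. Without replicate 1 at 1.5 months, which shared 776 clonotypes with replicate 4 at 3 months, the latter difference moved from -64.9 to -33.4 and that of sequences in 1 or 2 of the 6 from -557.2 to -177.2. All 4 classes were lower in mean, and none passed after adjustment, which with 21 divisions needs all 4 at the smallest p (0 of 4, 0%; 2 at an unadjusted p under 0.05; exact permutation adjusted p = 0.0952), nor did any share (0 of 4, 0%; 0 unadjusted; smallest exact permutation p = 0.333).

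Samples at 7 months held fewer clonotypes on average per combination of a V gene and a J gene in use. This mean is the clonotype number over the combinations in use, so it is not independent of the loss in number. Samples at 1.5 months used 2098 and 1938 combinations, and those at 7 months 1733, 1963, 1838, 1741 and 1936 (exact permutation adjusted p = 0.264). Clonotypes per combination in use were 3.81 and 3.35 against 2.92, 3.24, 3.06, 2.89 and 3.17, a change of -14.7% with no overlap (exact permutation adjusted p = 0.0257, 1 of 3 measures, 33.3%). The call was lost with copies merged (exact permutation adjusted p = 0.0868), without replicate 1 at 1.5 months (-0.296, adjusted p = 0.375 by the same exact test), and without replicate 1, 3 or 4 at 7 months. At an equal number of clonotypes, samples at 1.5 months would use 1723 and 1713 combinations and those at 7 months 1699 to 1756 (exact permutation adjusted p = 0.933).

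Single V genes were tested with edgeR in 2 ways. The test of number kept the decline of the whole repertoire in, and the test of usage asked whether a gene changed relative to the others. Of 104 V genes, 83 had a lower and 19 a higher mean number at 7 months. The falls summed to -1648.4 clonotypes and the rises to 44.1, so the loss was shared by most genes. The 10 genes with the largest falls made up 50.4% of the net loss and had held 37.1% of the clonotypes at 1.5 months. In number 9 of 89 tested genes were lower (10.1%, edgeR adjusted p) and 0 were higher, while the median log2 fold change of all tested was -0.29. With at least 2 or 10 counts per clonotype more genes passed in number, as given under the processing of the results. In usage 0 of 90 passed (0%; 6 at an unadjusted p under 0.05 in edgeR, and 0 by DESeq2). Near-identical copies of V genes with the suffixes D and N exist for most families, so reads can be split between them and single genes are uncertain.

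TRAV7-4 (chr14:53461099-53461738) had the largest fall and the smallest p in number. It numbered 464 and 375 clonotypes at 1.5 months and 266, 327, 256, 246 and 306 at 7 months (log2 fold change -0.58 ± 0.14, SE, edgeR adjusted p = 0.00278). TRAV14D-1 (chr14:52855614-52856166) numbered 379 and 349 against 241, 304, 212, 216 and 263 (log2 fold change -0.56 ± 0.14, edgeR adjusted p = 0.00461). In both genes all later samples were below both earlier ones. TRAV7-3 (chr14:53443249-53443839), also from the central part of the locus, numbered 162 and 146 against 80, 107, 103, 84 and 87 (log2 fold change -0.74 ± 0.20, edgeR adjusted p = 0.00528). TRAV3-3, from the J-proximal part, numbered 182 and 150 against 75, 128, 99, 100 and 109 (edgeR adjusted p = 0.00579). TRAV12-2 numbered 189 and 172 against 104, 144, 112, 97 and 139 (edgeR adjusted p = 0.0176). TRAV4-4-DV10, which also serves TCR δ chains, numbered 278 and 270 against 209, 186, 185, 188 and 202 (edgeR adjusted p = 0.0208). TRAV4D-4 (315 and 250 against 180 to 235), TRAV12D-2 and TRAV4D-3 completed the 9, while TRAV7D-2, with 363 and 342 against 238 to 318, did not pass (edgeR adjusted p = 0.0909). The last 2 of the 9 fall outside the naming rule and were named after their values were seen.

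On usage TRAV7-3 and TRAV7-4 had log2 fold changes of -0.41 and -0.25 and TRAV3-3 -0.37, none of which passed (edgeR adjusted p = 0.164, 0.175 and 0.175). TRAV9-1 (chr14:53488045-53488567) had the largest rise in mean and the smallest p in usage. It numbered 101 and 68 clonotypes at 1.5 months and 92, 122, 107, 103 and 64 at 7 months, a usage log2 fold change of 0.56 ± 0.18 (edgeR adjusted p = 0.164). Replicate 5 at 7 months was below both 1.5-month samples, and without that sample TRAV9-1 passed in usage (log2 fold change 0.68, edgeR adjusted p = 0.00453). Without replicate 2 at 1.5 months the usage p was 0.872 (edgeR adjusted) and the log2 fold change in number turned from 0.21 to -0.0493. Among tested genes the other largest rises in mean were small, TRAV9D-3 (10 to 13.8), TRAV10N (34.5 to 37.6), TRAV1 (43.5 to 46) and TRAV15D-1-DV6D-1 (6 to 8.4). None of these passed in number or usage. TRAV6D-4 rose as much as the last (14 to 16.4), and TRAV11N, which was not tested, rose from 0.5 to 3.2. The 9 number calls were lost without replicate 1 at 1.5 months (0 calls), 4 were made without replicate 4 at 7 months, and 6 of the same 9 were called with copies merged.

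**Figure D4:**
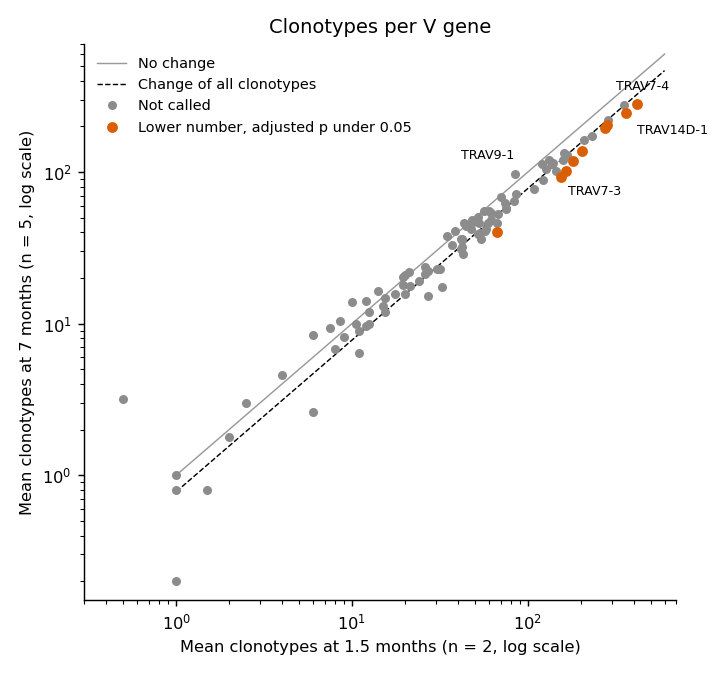
Mean number of clonotypes per V gene at 7 months (y axis, n = 5) against 1.5 months (x axis, n = 2), both on log scales, for genes with a mean above 0 in both groups. The 9 orange genes passed the edgeR test of number and lie near or below the dashed line of the -22.1% change of all clonotypes, and TRAV9-1 lies above the line of no change.

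Pairs of a V family and a J gene were tested in the same ways. Of 783 pairs in the series, 754 occurred in the 7 samples, and 511 had a lower and 233 a higher mean at 7 months, with falls of -1851 and rises of 246.7 clonotypes in all. The 10 largest falls made up 13.6% of the net loss and had held 8.09% of the clonotypes at 1.5 months. In number 3 of 271 tested pairs were lower (1.11%) and 1 was higher (0.369%) by edgeR, with a median log2 fold change of -0.36 over all tested. In usage 1 of 283 passed, in the higher direction (0.353%). The higher call is the same pair in both tests, TRAV9 with TRAJ13, which entered the tests only through later samples in which it was high. With copies merged 0 pairs passed in number (46 at an unadjusted p under 0.05, smallest edgeR adjusted p = 0.0515) and 0 in usage (8 unadjusted, smallest edgeR adjusted p = 0.820), so the 4 calls in number were lost when copies were merged. They were also lost without either 1.5-month sample or without replicate 1, 2 or 4 at 7 months (0 calls each), and 1 call was made without replicate 3.

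TRAV4 with TRAJ15 numbered 38 and 39 clonotypes at 1.5 months and 14, 22, 25, 14 and 19 at 7 months (log2 fold change -1.03 ± 0.26, SE, edgeR adjusted p = 0.0390). With copies merged it numbered 28 and 25 against 10, 15, 16, 11 and 14, still without overlap. TRAV12 with TRAJ13 numbered 56 and 48 against 21, 22, 21, 30 and 40 (log2 fold change -0.95 ± 0.24, edgeR adjusted p = 0.0390), and merged 35 and 27 against 14, 17, 13, 18 and 26. TRAV12 with TRAJ22 (J chr14:54197248-54197307) numbered 48 and 37 against 23, 25, 21, 21 and 25 (log2 fold change -0.88 ± 0.24, edgeR adjusted p = 0.0485). Its call was lost whichever 7-month sample was left out (edgeR adjusted p of 0.0514 or more). TRAJ22 has few copies, and this pair hardly moved with merging, to 45 and 35 against 22, 25, 18, 20 and 23. TRAV7 with TRAJ22 had the largest fall in number, from 70 and 67 to 48, 37, 38, 43 and 46, and did not pass (edgeR adjusted p = 0.0812). TRAV7 with TRAJ37, TRAV7 with TRAJ30 and TRAV12 with TRAJ15 lost 22.2, 21.7 and 21.4 clonotypes on average and did not pass either (edgeR adjusted p = 0.0906, 0.0748 and 0.114). TRAV12 with TRAJ15 numbered 77 and 41 against 34 to 42, and without replicate 1 at 1.5 months its log2 fold change moved from -0.65 to -0.12, while that of TRAV7 with TRAJ37 moved from -0.60 to -0.36.

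TRAV9 with TRAJ13, selected by the filter through its higher samples, is given as a description. It numbered 2 and 2 clonotypes at 1.5 months and 8, 16, 15, 9 and 11 at 7 months, with no overlap (usage log2 fold change 2.83 ± 0.64, SE). The 3-month samples held 5 to 13 and the 5-month samples 7 and 25. Its clonotypes were small, with 8 and 8 counts in all at 1.5 months and 120 to 520 at 7 months, or 0.0226% to 0.0986% of a sample. The 63 clonotypes of the 7 samples gave 55 amino acid sequences, of which 49 were in a single sample. TRAV9N-4 contributed 23 and TRAV9-1 17 of them. Copies were part of this number, as the largest clonotype of the pair and its copy in replicate 2 at 7 months show, with the differing base in capitals.
TRAV9-1 with TRAJ13, 164 counts: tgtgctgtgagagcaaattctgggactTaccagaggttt
its copy (T28G), 37 counts: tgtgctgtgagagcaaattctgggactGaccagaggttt
With copies merged the pair numbered 2 and 2 against 4, 8, 9, 5 and 8, too few to pass the filter for testing. The usage call was also lost without either 1.5-month sample (log2 fold change 2.68 and 2.97) and without replicate 2, 3, 4 or 5 at 7 months (edgeR adjusted p of 0.0508 or more). At least 2 counts (edgeR adjusted p = 0.0996) and DESeq2 (adjusted p = 0.110) lost it too. The pair stayed under the threshold in edgeR at equal depth, with only the 2 time points and with no filter. Since it was picked through its higher samples, these passes are not support for a rise. TRAJ13 over all V genes did not rise, with 304 and 286 clonotypes against 208, 306, 212, 215 and 262. The other largest rises, TRAV9 with TRAJ15, TRAJ21 and TRAJ31 and TRAV7 with TRAJ43, gained 3.9 to 4.5 clonotypes on average and did not pass.

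**Figure D5:**
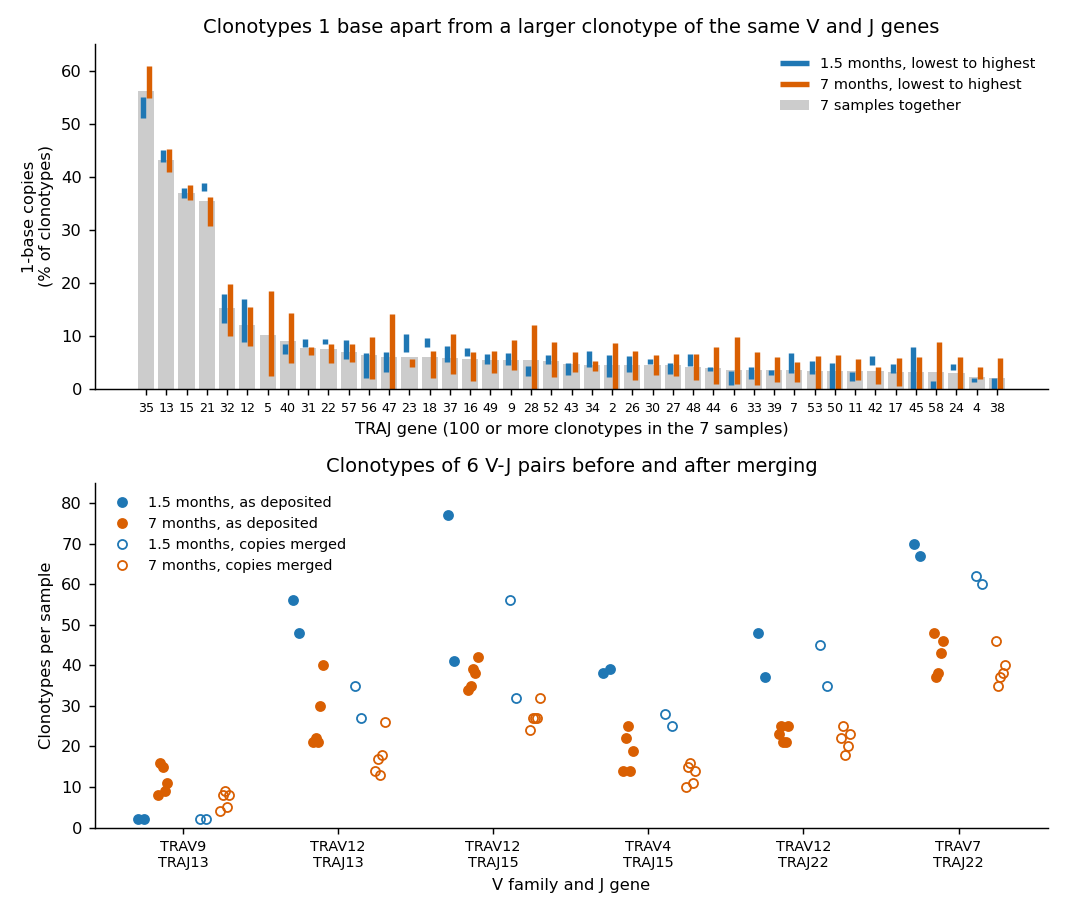
Top, 1-base copies as percent of clonotypes (y axis) for each TRAJ gene with 100 or more clonotypes (x axis), with bars for the 7 samples together and lines for the range of each group. Bottom, clonotypes per sample of 6 V–J pairs as deposited (filled) and with copies merged (open); TRAJ35, TRAJ13, TRAJ15 and TRAJ21 stand above 35% in the top panel, and the TRAJ13 and TRAJ15 pairs shrink in the bottom panel.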

How the data were processed

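TCRα libraries (5′ RACE, template-switch oligo with 12 random bases) were sequenced on a MiSeq. The authors aligned reads and assembled clonotypes with MiXCR (3.0.13), and in VDJtools (1.2.1) dropped clonotypes that differed from a larger one by up to 2 mismatches, where the size ratio was under 0.05 for 1 mismatch and under 0.05 squared for 2. The deposited count of each clonotype was made by the authors in this way and is not normalized, and whether it counts reads or molecules is not stated. The deposited fraction of each clonotype was not used, and the authors' positions of V end and J start gave the inserted bases. The submitters' processing notes name GRCm38. Positions came from GENCODE M21 (104 of 104 V genes matched).

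Functional clonotypes were kept. Class numbers, shares and concentration were tested with the pooled-spread statistic over all 540540 arrangements of 13 samples, taking the maximum over 3 comparisons with 1.5 months (exact, two-sided), with Benjamini-Hochberg adjustment within each family and a threshold of 0.05. Sharing classes are defined by the 3- and 5-month samples, so there only the 2 groups were permuted (21 divisions), which departs from the planned test. V genes and V family–J pairs were tested with edgeR 4.0.16 in R 4.3.3 (filterByExpr, quasi-likelihood, 1 model over 13 samples) on clonotype numbers, with TMM for usage and equal library sizes for number. Named V genes and pairs were the 5 largest falls, the 5 largest rises and, per test, at most 5 that passed, in order of p, or else the 1 of smallest p. The named rises of V genes are the largest among tested genes only. Named clonotypes were the largest of each sample and, by mean share, up to 3 CDR3 found in every sample of only 1 of the 2 time points. Members, lists and tests were chosen with earlier results of these data known. Alternatives were equal depth (477052 counts), at least 2 counts, other scales and classes, a replicate block, DESeq2 1.42.0, no filter, and each sample left out. At least 10 counts, the removal of clonotypes 100 times larger elsewhere, and the merging of 1-base copies were chosen after seeing the data. Intervals cover counting error only. Python 3.11.15, numpy 2.4.6, pandas 2.3.3, scipy 1.17.1 and matplotlib 3.10.9 were used, and the code was tested on simulated data.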

Additional observations from a re-analysis of the deposited data

Results flagged for a closer look

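Replicate 4 at 7 months held 26 TRAV1 clonotypes and lay far below the other 4 samples of its group. Among the 86 groups of 5 values examined it was the 1 value found, and chance gives about 1 in 20 groups. Clonotypes with a stop codon or frameshift, which no comparison used, numbered 1114 and 1005 at 1.5 months and 770, 943, 975, 751 and 930 at 7 months, so they were fewer in all later samples, like the functional ones. TCR δ rearrangements, which were not compared as a class but are part of the totals of functional clonotypes, had 176 and 271 counts at 1.5 months and 231, 331, 91, 93 and 109 at 7 months, and the groups overlapped. There was no control sample, and the δ counts of each sample are above the limit of 3 counts.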

How the results depend on the processing

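Of 266 alternatives over 17 counts of calls or differences, 194 stayed on the same side of the threshold or, for counts, within 1.5 times the reported count, and of 1715 over 110 single classes and genes, 1482 kept direction and call. Replicate numbers did not pair samples: same-numbered samples had correlations of their deviations of -0.344 to 0.1996 over V genes, and 1 of 13 samples correlated best with its own number, so the replicate block is given only here. With the block the clonotype number differed by -1626.12 and its call was lost (exact permutation p = 0.172), and calls were 0 for clone-size number, share and concentration, pair occupancy and V-gene number, and 1 for V-gene usage. With 1-base copies merged it differed by -1370.7, with the call lost, and occupancy, pair number and pair usage had 0 calls. With only the 2 time points, where adjusted p can hardly pass, size number, size share, concentration and occupancy had 0 calls. Size classes by counts gave 0 calls in number, 0 in share and 3 in concentration, which also had 3 on the log2 scale. With at least 2 or 10 counts the calls in number were 7 for length, 6 for insertion, 18 for V-J regions and 4 for sharing classes, and pair usage had 0. Occupancy had 2 and 3 and V-gene number 18 and 16. At 10 counts length share had 1 and pair number 10. Leaving out clonotypes 100 times larger elsewhere gave 1 call for length number and 3 for insertion number. DESeq2 gave 2 pairs in number and 0 in usage, and single V gene by J gene 0 and 0. Leaving out each sample gave -2355 to -854 clonotypes, and calls of 0 to 3 for size number, 0 to 1 for size share, 1 to 4 for concentration, 0 to 1 for length number, 0 to 6 for insertion number, 0 to 17 for V-J regions, 0 to 1 for occupancy, 0 to 13 for V-gene number, 0 to 1 for V-gene usage, 0 to 4 for pair number and 0 to 1 for pair usage. Directions reversed for TRAV7D-2 usage (0.0395 with the block, 0.0095 with library totals, -0.13 to 0.0927 leaving out a sample) and, with the block, for TRAV10N (-0.21) and TRAV15D-1-DV6D-1 (-0.0733) number, and TRAV1 number came to 0 at 10 counts. Leaving out a sample also reversed clonotypes under 0.001% (-680.6 to 53.4) and their percent of counts (-0.185 to 0.0365), suffix N (-197.8 to 6.2), TRAV9-1 number (-0.0493 to 0.52), TRAV12 with TRAJ15 usage (-0.52 to 0.0789) and TRAV9 with TRAJ15 number (-0.0924 to 1.56), and brought clonotypes of 1% and over to no difference (0 to 3). The causes were not tested beyond the fewer samples or clonotypes that an alternative leaves. Clonotypes under 3 counts cannot be told from the detection floor.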

Other observations

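Clonotypes of 0.1% or more differed from smaller ones of the same sample in sharing and in inserted bases, in both groups. Their CDR3 amino acid sequence was also found at 3 or 5 months for 94.6% and 66.7% of them at 1.5 months and for 59.3% to 74.6% at 7 months, against 47.5% to 52.2% of smaller clonotypes, and this share was higher in 7 of 7 samples. The 94.6% is that of replicate 1, which shared 776 clonotypes with replicate 4 at 3 months, and the part of that sharing was not tested. A sequence counted as found at any count. Large clonotypes can have very few counts in other samples, as the largest of replicate 5 at 7 months did. The part of such traces in the higher sharing was not tested in any of the 7 samples. Clonotypes of 0.1% or more had fewer inserted bases on average in 7 of 7 samples (1.46 to 1.81 at 1.5 months and 1.57 to 2.18 at 7 months, against 2.13 to 2.26 for smaller clonotypes), and a larger share without insertion in 6 of 7. The difference in inserted bases ran from -0.724 to -0.0180. Mean CDR3 length was lower in 6 samples and higher in 1. The share of 3′ J was higher in 3 and lower in 4, and that of 5′ J higher in 2 and lower in 5. These are descriptions, with no test.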
